A study of Mus musculus with 7 samples.

Results

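The silent shared stress regions are sites with a peak of nascent DNA strands in both kinds of stressed mouse embryonic stem cells (mESCs). Neither library of untreated cells had a peak there. They were chosen from measured values. The deposited origin lists of APH, CDC6 and WT were merged wherever rows shared at least 1 bp on chromosomes 1 to 19 and X, which gave 46639 regions. A region was kept if it held rows of the APH and CDC6 lists, held none of the WT list, and met no MACS peak of WT library 1 or WT library 2. This left 485 of the 46639 regions, or 5.90% of the 8218 regions that only the APH and CDC6 lists share. The other 7733 of those regions met a WT peak and are the nearest comparison. The 11888 regions that all 3 lists hold are the second comparison.

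Replication starts at origins. In G1 phase the origin recognition complex, CDC6 and CDT1 load the MCM helicase at many more sites than a cell will use, and only some of these licensed sites fire in a given S phase. The rest are dormant origins, which can fire when forks slow or stall and are known for their part in completing replication under stress. Short nascent strand sequencing reads the young DNA next to a start site: an RNA primer protects the 5′ end of a nascent strand from lambda exonuclease, which removes broken DNA of the same size. In mammals such start sites are often found near promoters and CpG islands, and gene-poor late-replicating DNA holds fewer.

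The study set 3 conditions side by side with 2 libraries each. APH cells carried the TetO-CDC6 transgene and were held for 2.5 h in 0.5 µM aphidicolin, which blocks the replicative DNA polymerases. CDC6 cells carried the same transgene and received 1 µg/ml doxycycline for 30 h, which switches it on. WT cells received no treatment: WT library 2 came from the TetO-CDC6 mESCs without doxycycline, and WT library 1 from a different, wild-type mESC culture submitted earlier. TetO-CDC6 mESCs derive from a mouse model with a doxycycline-inducible Cdc6 gene. The 2 WT libraries thus came from different cultures, while the labels do not say whether the 2 APH or the 2 CDC6 libraries did. The p-values below measure the spread between these libraries, which within APH and CDC6 may be technical. DNA libraries show neither CDC6 protein nor stem cell markers, so the induction and the cell identity were not checked.

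MACS peaks numbered 71435 to 82071 in the 4 stressed libraries, against 94747 in WT 1 and 81056 in WT 2. The sources used here give no read depth, so precision is limited by these peak numbers. WT 1 stood apart: 8.26% of its peaks lay on chromosome 8, where the other 5 libraries had 4.86% to 5.53%, and 1.75% lay on X, where the others had 2.24% to 4.15%. Each library also has a second deposited list, whose labels go against the MACS lists. The whole WT origin list is contained in the second list labelled APH 1, the whole APH origin list in that labelled CDC6 1, and the whole CDC6 origin list in that labelled CDC6 2. The second lists were therefore kept out of the comparisons below. Positions are on mm10 (GRCm38).

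Silence in WT rests on both WT libraries. With WT 2 alone as the test of silence (WT 1 left out), 1150 regions would count as silent, and with WT 1 alone 3373 would. A WT list restricted to peaks with a q-value of at most 0.01 would leave 954, since 469 further shared stress regions met only weaker WT peaks. The deposited peaks reach a q-value of 0.1, so silent means no peak at that level, not an absence of nascent strands.

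Few of the 485 regions lay at promoters, so the promoter sequences that they did cover are shown first. RefSeq promoter windows (GRCm38.p6, 250 bases before to 50 after a gene start) met 6 of 462 silent regions, or 1.30% (95% Clopper-Pearson interval 0.478 to 2.81%). They met 506 of 7442 shared stress regions with a WT peak (6.80%) and 38.9% of the regions of all 3 lists. Of the 6 windows, 3 lay at least 50% inside a silent region, those of Washc3 and of the long non-coding RNAs Gm12474 and Gm46301. The Zfp788 window is added as the protein-coding gene with the next largest overlap. Capitals mark letters that match GGGCGG (the GC box), the CCAAT box, the TATA box letters TATAAA, or 4 runs of GGG with 1 to 7 bases N between runs (a G-quadruplex pattern), each searched on both strands, where a GC box and a G-quadruplex pattern may overlap.
Washc3 promoter (chr10:88200847-88201146, + strand): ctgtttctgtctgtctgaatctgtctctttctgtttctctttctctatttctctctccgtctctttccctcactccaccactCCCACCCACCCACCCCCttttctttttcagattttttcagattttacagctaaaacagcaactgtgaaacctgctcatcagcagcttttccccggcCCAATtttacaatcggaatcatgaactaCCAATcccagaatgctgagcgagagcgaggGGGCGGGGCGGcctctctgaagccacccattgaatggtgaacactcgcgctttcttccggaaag
Zfp788 promoter (chr7:41634540-41634839, + strand): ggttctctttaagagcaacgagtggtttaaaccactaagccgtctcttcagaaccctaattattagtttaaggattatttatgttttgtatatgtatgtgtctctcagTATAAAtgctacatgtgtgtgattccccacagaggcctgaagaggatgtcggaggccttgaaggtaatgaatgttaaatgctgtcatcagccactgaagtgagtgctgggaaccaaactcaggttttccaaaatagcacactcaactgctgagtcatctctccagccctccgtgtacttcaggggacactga
Gm12474 promoter (chr3:100495150-100495449, + strand): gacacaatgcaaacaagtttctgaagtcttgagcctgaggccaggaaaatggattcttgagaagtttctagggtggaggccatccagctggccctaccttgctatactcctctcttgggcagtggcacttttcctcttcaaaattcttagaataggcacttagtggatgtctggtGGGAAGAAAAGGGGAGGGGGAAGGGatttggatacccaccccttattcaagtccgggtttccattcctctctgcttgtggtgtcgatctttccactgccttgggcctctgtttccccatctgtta
Gm46301 promoter (chr11:112860627-112860926, + strand): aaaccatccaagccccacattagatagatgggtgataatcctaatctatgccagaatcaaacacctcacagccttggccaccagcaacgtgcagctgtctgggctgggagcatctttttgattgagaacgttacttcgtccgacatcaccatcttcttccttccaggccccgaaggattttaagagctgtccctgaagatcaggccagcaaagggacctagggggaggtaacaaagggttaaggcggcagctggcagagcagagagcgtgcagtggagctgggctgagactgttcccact

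Washc3 encodes a subunit of the WASH complex, which builds actin on endosomes. Bases 1 to 255 of its window lay inside the silent region, and they hold 2 GC boxes, 2 CCAAT matches and G-quadruplex patterns. The Zfp788 window, 130 bases of which were inside, holds 1 TATAAA match and no other. The Gm12474 window lay wholly inside its region and holds 1 G-quadruplex pattern, while the Gm46301 window, also wholly inside, holds no match. Over all 32619 promoter windows, 35.9% hold GGGCGG, 37.6% hold CCAAT, 13.7% hold TATAAA and 18.6% hold the G-quadruplex pattern. The GC content of the 3 windows lying at least 50% inside was 49.0% to 52.7%, with a median of 49.3%, against a median of 65.7% for the 544 windows at least 50% inside shared stress regions with a WT peak. The median over all 32619 promoter windows was 53%, nearer to that of the 3 windows. Of the remaining pair of promoter windows, 3 bases lay inside the region for Glp2r, a receptor of the gut hormone GLP-2, and 100 bases for the non-coding Gm36798. Matches describe letters in a window and name no bound factor.

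Each silent region rested on 1 row of the APH list and 1 row of the CDC6 list, and each had a MACS peak in all 4 stressed libraries. The peaks were modest. Fold over the control, the authors' value for a region's strongest peak, had medians of 2.88 and 2.74 in APH 1 and APH 2, and 2.54 and 3.03 in CDC6 1 and CDC6 2. Shared stress regions with a WT peak had medians of 3.28, 3.24, 3.10 and 3.33 in the same libraries. A fold of at least 3 in all 4 libraries was reached by 18 silent regions, and a fold of at least 4 in all 4 by 2. A q-value of at most 0.01 in all 4 libraries was reached by 350 of the 485. Such counts were not made for the comparison classes, so they describe the silent regions only.

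The silent regions were therefore compared by rank within each library, where 100 is the library's strongest peak by −log10 q-value. Their median rank was 65.1 and 61.4 in APH 1 and APH 2, and 50.9 and 64.6 in CDC6 1 and CDC6 2. Shared stress regions with a WT peak had median ranks of 78.8, 78.8, 76.3 and 76.9. The mean rank of the silent regions differed by −13.3 and −16.5 points in APH 1 and APH 2, and by −23.2 and −10.1 points in CDC6 1 and CDC6 2, from that of the regions with a WT peak. The mean difference was −15.8 ± 5.61 percentile points (SD, 4 libraries), and it was negative in 4 of 4 libraries. An exact two-sided sign-flip permutation test over libraries gave p = 0.125 (adjusted 0.25 over 2 such tests), which is the smallest p that 4 libraries allow. The lists of these same conditions chose the regions of both classes, so the rank difference is a description. The part of region width in it was not tested. Strength in the stressed libraries and a peak in WT went together across all shared stress regions: the median of a region's mean rank over the 4 stressed libraries was 59.2 with no WT peak, 65.1 with a peak in WT 1 only, 68.1 with a peak in WT 2 only and 81.5 with a peak in both. The classes do not separate, since the quartiles of their ranks overlap in each library.

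**Figure D1:**
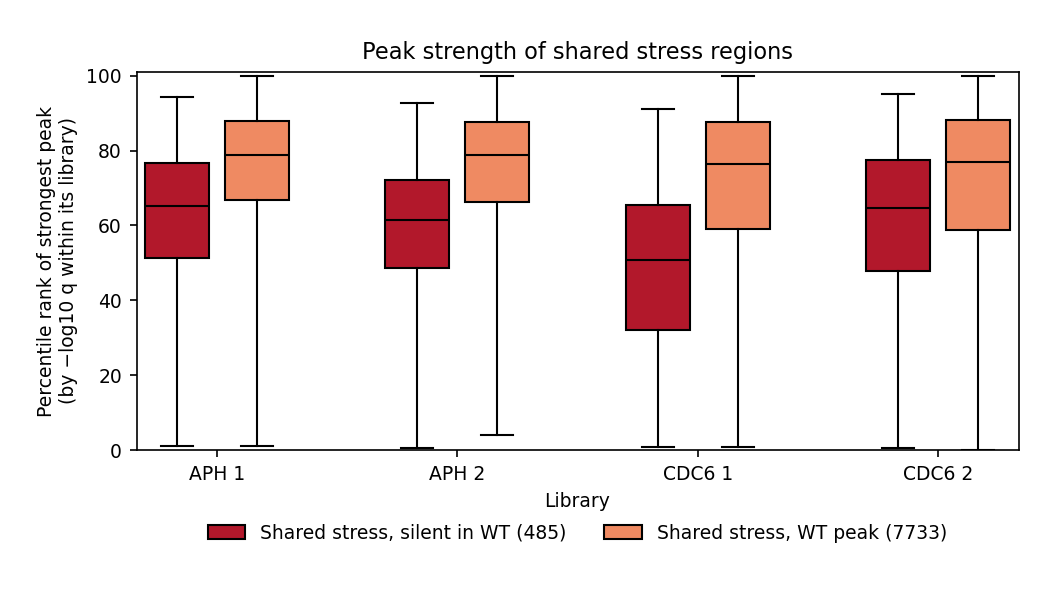
Percentile rank (0 to 100, by −log10 q-value within a library) of the strongest MACS peak of each region, in the 4 stressed libraries. Boxes show quartiles with the median, and whiskers reach the lowest and highest region. The 485 silent regions (left of each pair) have medians of 50.9 to 65.1, below the 76.3 to 78.8 of the 7733 shared stress regions with a WT peak, and the boxes overlap.

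The silent regions were also narrow. Their median width was 665 bp, against 788 bp for shared stress regions with a WT peak. A wider region is more likely to meet a WT peak, so the rule itself favours narrow regions. Its part in the difference was not tested. The MACS peaks behind them had median widths of 1010 bp and 992 bp in APH 1 and APH 2, and 940.5 bp and 1030 bp in CDC6 1 and CDC6 2, against 1386, 1379.5, 1382 and 1219 bp for the peaks behind regions with a WT peak. In each library 484 peaks stood behind the 485 regions, because a pair of regions near Zbbx, 0.435 kb apart, shared one. The strongest of the 4 peaks of a region by fold was in CDC6 2 for 228 regions, in APH 1 for 157, in APH 2 for 58 and in CDC6 1 for 42. The median fold over all peaks of a library was also highest in CDC6 2, at 2.73, and next in APH 1, at 2.60, with 2.51 in both APH 2 and CDC6 1.

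The 2 strongest members lay outside genes. These values are descriptions, since the same stressed lists chose the regions. The first by mean rank lay on chromosome 8 (117952503 to 117953211), 150.5 kb from Mphosph6, which encodes a cofactor of the RNA exosome. Its fold was 5.07 and 4.92 in APH 1 and APH 2, and 4.18 and 4.85 in CDC6 1 and CDC6 2, with no peak in either WT library. The second lay on chromosome 13 (52139837 to 52140697), 291.4 kb from Gadd45g, a growth arrest and DNA damage inducible gene, with folds of 4.30, 4.14, 4.39 and 4.90 in APH 1, APH 2, CDC6 1 and CDC6 2. These are the 2 regions with a fold of at least 4 in all stressed libraries. The nearest WT peak was 10.4 kb from the Mphosph6 region and 20.4 kb from the Gadd45g region.

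Most of the other named members outside genes lay nearer to a gene. A region 4.25 kb from Gstm6, a glutathione S-transferase gene, had folds of 3.63 and 3.88 in APH 1 and APH 2, and 3.69 and 4.27 in CDC6 1 and CDC6 2. One 9.23 kb from Derl1, whose protein serves degradation of misfolded proteins of the endoplasmic reticulum, had 4.33, 4.23, 3.40 and 3.67 in the same libraries. Both were above the median of all silent regions in each library. One 10.2 kb from Kng2, a kininogen gene, had folds of 4.10, 3.89, 3.48 and 3.93, and its nearest WT peak was only 0.295 kb away. The regions near Ccdc182, Wdr34 (3.84 kb) and Atp11b (441.1 kb) followed, the last being farther from a gene than the 2 strongest. The region near Atp11b, a flippase gene, varied most among these 8: 4.23 in APH 1 and 4.58 in CDC6 1, against 3.57 in APH 2 and 3.10 in CDC6 2.

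Inside gene bodies, the strongest member lay in Rph3al, which encodes a Rab effector of exocytosis, at chromosome 11 (75847035 to 75847732). Its fold was 3.61 and 5.00 in APH 1 and APH 2, and 4.19 and 3.65 in CDC6 1 and CDC6 2. The member in Nox4, an NADPH oxidase gene, had folds of 4.33 and 3.35 in APH 1 and APH 2, and 3.40 and 4.17 in CDC6 1 and CDC6 2. That in Sap30bp had 3.17, 3.91, 3.43 and 4.68 in the same libraries. In these 3 members the 2 libraries of a condition differed by more than the means of the conditions did. Tmem132c, Ampd3 (an AMP deaminase gene), D430019H16Rik, Rab11fip5 (an effector of Rab11 on recycling endosomes) and Pappa2 (a protease of IGF-binding proteins) followed, with single-library folds of 2.77 to 4.14. The member in Ampd3 is a narrow case of the rule, since a WT 2 peak ended 21 bp and a WT 1 peak 77 bp away.

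Gene ends, here the 1 kb to each side of where a protein-coding gene begins or stops, held 13 members. Nyx, which encodes the retinal protein nyctalopin, had the strongest, on X (13461562 to 13462293), with folds of 4.06 and 4.43 in APH 1 and APH 2, and 3.24 and 3.54 in CDC6 1 and CDC6 2. The Zfp788 region, at a zinc finger gene, had folds of 3.21, 3.25, 2.72 and 4.95, the last from CDC6 2 alone being far above the rest. The Washc3 region whose sequence is shown above was weaker, with 2.16, 2.61, 2.64 and 3.39. A region at 1700071K01Rik also lay within Asic2, an acid-sensing ion channel gene, and had folds of 3.45, 3.39, 2.65 and 3.09. Ccdc182, Ccm2l, Odam, Gstm2 (another glutathione S-transferase gene), Slc16a14 (of the monocarboxylate transporter family) and Atp7a (a copper-transporting ATPase gene) had folds between 2.17 and 3.62. The remaining 3, not named by the rule, were at Glp2r, Mcc and between Nsmaf and Sdcbp.

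**Figure D2:**
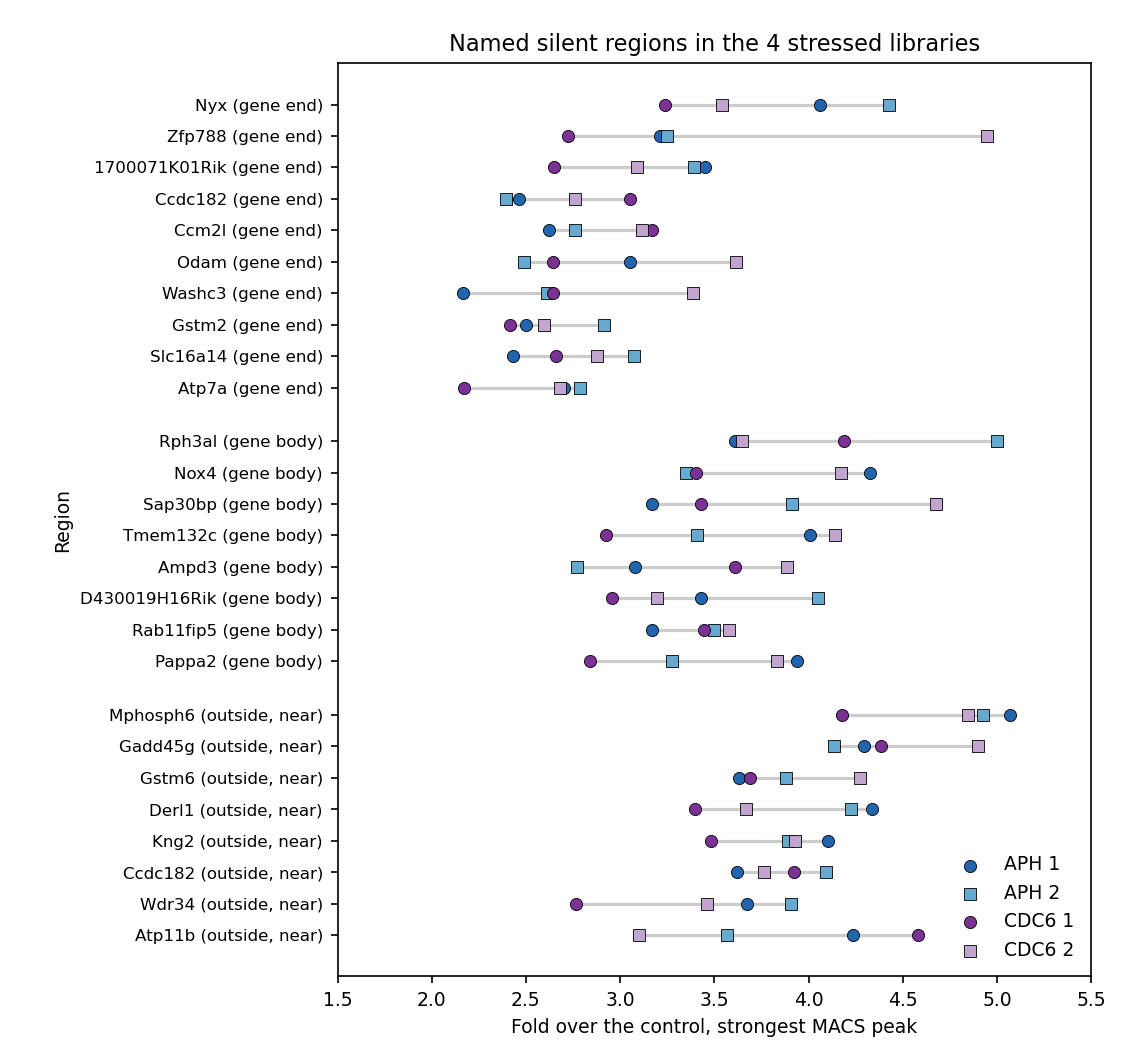
Fold over the control of the strongest MACS peak (x axis, the authors' values) in APH 1, APH 2, CDC6 1 and CDC6 2 for the named silent regions, grouped as gene end, gene body and outside genes. Grey lines span the 4 libraries of a region. Folds reach 5.07 near Mphosph6 and fall to 2.16 at Washc3, and CDC6 2 stands apart at Zfp788 with 4.95.

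Silent regions were set against the gene map to see where they lie. Gene ends held 13 of the 485, or 2.68% (95% Clopper-Pearson interval 1.43 to 4.54%), against 9.52% (8.87 to 10.2%) of shared stress regions with a WT peak and 45.3% of regions of all 3 lists. Windows at gene ends cover 2.98% of the chromosome span. Bodies of protein-coding genes held 164, or 33.8% (29.6 to 38.2%), against 40.6% (39.5 to 41.7%) and 71.3%, and such genes cover 39.2% of the span. Outside genes and gene ends lay 317, or 65.4% (60.9 to 69.6%), against 58.7% (57.6 to 59.8%). These intervals cover counting error only, neighbouring regions are not independent, and each condition has 1 list, so the differences have no replicate error. The gene-end share was lower than that of the regions with a WT peak in each band of peak strength: 2.96% against 4.58% at a mean rank under 50, 2.33% against 6.96% from 50 to 75, and 4.00% (2 of 50 regions) against 12.5% at 75 and above. In the lowest and highest bands the intervals overlap. With a gene-end window of 5 kb the share was 10.3%.

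**Figure D3:**
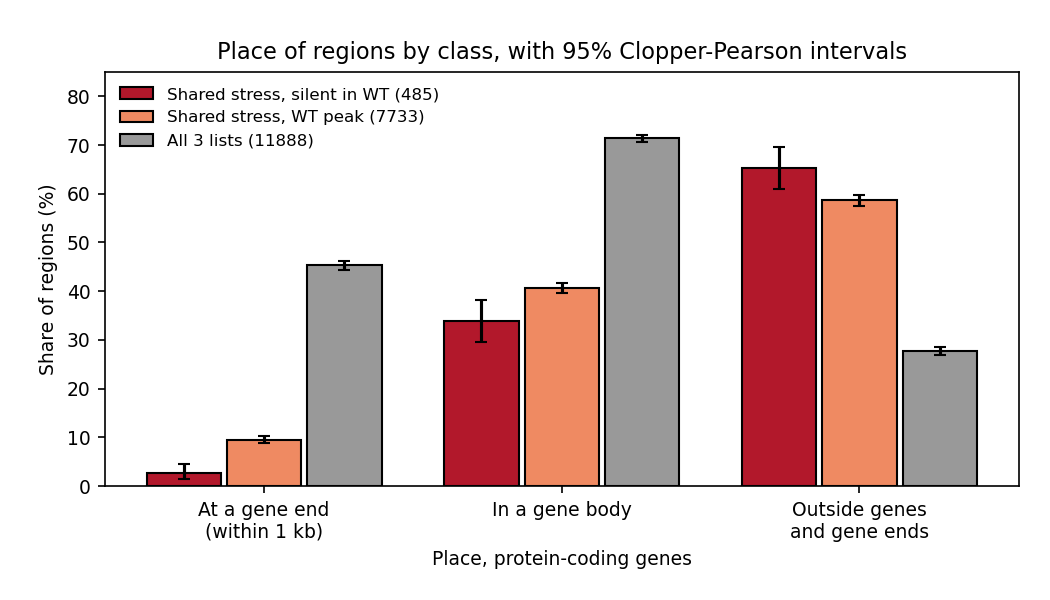
Share of regions (%) at gene ends, in gene bodies and outside both, for the 485 silent regions, the 7733 shared stress regions with a WT peak and the 11888 regions of all 3 lists, with 95% Clopper-Pearson intervals as bars. A region can be both at an end and in a body. The silent regions have 2.68% at gene ends, against 9.52% and 45.3% in the other classes.

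The low gene-end share was not particular to silence in both WT libraries. Shared stress regions with a peak in WT 2 only had 1.87% at gene ends (1.41 to 2.43%, 2888 regions), while those with a peak in WT 1 only had 18.9% (16.0 to 22.1%, 665 regions) and those with both had 13.3% (12.3 to 14.4%, 4180 regions). Bodies followed the same order, with 33.8% of silent regions, 57.7% with WT 1 only, 32.3% with WT 2 only and 43.7% with both. The gene-end share thus moved with the presence of a WT 1 peak, which comes from the other mESC culture. Whether the cell line, its medium or its library preparation accounts for this cannot be told apart in these samples. When WT 1 was left out of the rule, 12.1% of the 1150 regions then counted as silent were at gene ends and 47.7% in bodies.

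**Figure D4:**
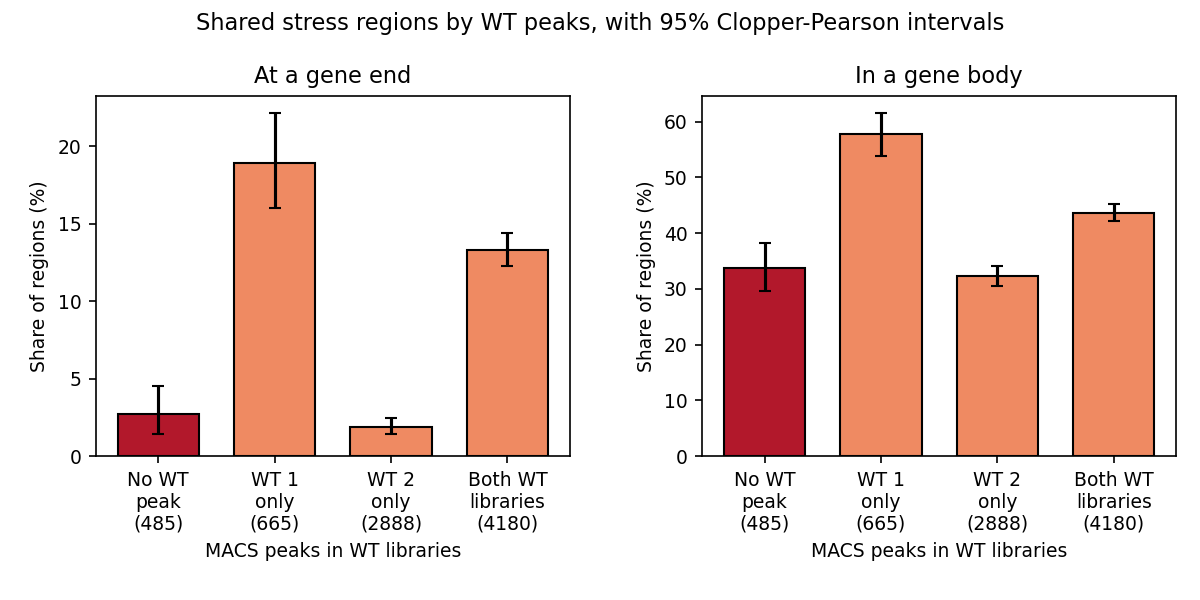
Share of shared stress regions (%) at gene ends (left) and in gene bodies (right) by the WT libraries with a MACS peak there, with 95% Clopper-Pearson intervals. Regions with no WT peak (2.68% at ends) and with a WT 2 peak only (1.87%) are low, and those with a WT 1 peak only are at 18.9%.

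Compared with both other classes, silent regions lay in gene-poorer surroundings. Their median distance to the nearest protein-coding gene was 25.3 kb, against 12.7 kb for shared stress regions with a WT peak, and a median of 4 genes, against 6, lay within 500 kb on each side. No gene lay that near for 54 regions, or 11.1% (8.48 to 14.3%), against 9.09% (8.46 to 9.75%) and, for regions of all 3 lists, 3.16%. The interval of the silent regions includes the value of the regions with a WT peak but not that of the regions of all 3 lists. These measures were not split by WT library, as the gene-end and body shares were. Within the silent class, the 155 in bodies and away from ends had a median mean rank of 62.1, and the 317 outside genes one of 57.8. Long non-coding RNA genes held 40 of the 485 (8.25%) and pseudogenes 9 (1.86%), while 8.91% and 1.34% of the regions with a WT peak met these. No silent region met an annotated miRNA, snoRNA or tRNA gene, which allows a share of up to 0.758% by the Clopper-Pearson bound.

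Where silent regions did lie in genes, the genes were often long. Genes of at least 300 kb, many of which encode neuronal proteins and are known to replicate late, held 72 silent regions, or 14.8% (11.8 to 18.3%), against 10.8% (10.2 to 11.6%) of shared stress regions with a WT peak and 7.69% of regions of all 3 lists. Such genes cover 12.03% of the span, a value inside the interval of the silent regions. Among regions in gene bodies, 71 of 164 (43.3%) were in long genes, against 26.6% and 10.7%. Long genes cover 316.1 Mb of the 1029 Mb that protein-coding genes cover. No interval was computed for the 43.3%. The members spread over 65 of the 556 long genes, and 4 genes held more than 1: Dlg2 with 4, and Dmd, Anks1b and Pde4b with 2 each.

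Common fragile sites are chromosome regions that break under aphidicolin in human cells, and many lie in long late-replicating genes. Mouse genes of the same name as 20 such human genes held 11 silent regions, or 2.27% (1.14 to 4.02%). They held 0.918% (0.718 to 1.16%) of shared stress regions with a WT peak and 0.597% of regions of all 3 lists. These genes cover 1.105% of the span. The intervals of the silent and WT-peak classes overlap. Only 7 of the 20 genes held a silent region, and Dlg2, which encodes a synaptic scaffold, held 4 of the 11. Dmd (dystrophin) held 2, and Auts2, Cntnap2 (a neuronal adhesion protein), Ctnna3 (an alpha-catenin), Lsamp (a neuronal adhesion protein) and Magi2 (a synaptic scaffold) held 1 each. Fhit and Wwox, among the most studied human fragile genes, held 0 silent regions, with 7 and 2 shared stress regions with a WT peak.

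The Dlg2 regions spread over much of that gene of 1973 kb and differed in strength. The first, at chromosome 7 (90716296 to 90717103), had folds of 2.40 and 3.13 in APH 1 and APH 2, and 2.77 and 3.89 in CDC6 1 and CDC6 2. The next, from 90913512, had 2.45, 2.32, 2.16 and 2.80, and the third, from 91156510, had 3.23, 2.76, 2.27 and 3.30. The fourth, from 92051877, had 2.45, 2.95, 2.12 and 2.13, and its CDC6 2 peak was at the edge of the deposited list, at percentile 0.456. The nearest WT peaks were 4.34, 11.9, 45.3 and 8.23 kb away. The Dmd region from 83299227 had percentile ranks of 71.3 and 67.8 in APH 1 and APH 2, and 29.3 and 24.7 in CDC6 1 and CDC6 2. The Dmd region from 84911136 had ranks of 71.2, 55.0, 5.43 and 66.1 in the same order, so CDC6 1 alone was low there. The Ctnna3 region was the strongest of this list, with folds of 2.61, 3.25, 3.21 and 3.83.

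Other gene lists met few silent regions. Olfactory receptor, vomeronasal receptor, canonical histone, cytosolic ribosomal protein, Hox and clustered protocadherin genes held 0 of 485, and they cover at most 0.137% of the span each. They held 0.0129% to 0.181% of regions with a WT peak each. The Clopper-Pearson bound for 0 of 485, 0.758%, lies above these shares, so the zeros are no result about the silent regions. Zfp genes held 1 (0.206%), at Zfp788, against 0.440% of regions with a WT peak and 1.19% of regions of all 3 lists. They cover 0.505% of the span. Receptor and potassium channel genes held 4 (0.825%, against 0.879% of regions with a WT peak), among them Kcnn2, which encodes a calcium-activated potassium channel, Grm7, a metabotropic glutamate receptor gene, and Kcnd3, a voltage-gated potassium channel gene. The Kcnn2 region had folds of 3.39 and 2.88 in APH 1 and APH 2, and 3.09 and 3.04 in CDC6 1 and CDC6 2.

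Silent regions fell into 425 bins of 1 Mb, of which 371 held 1 region, 49 held 2, 4 held 3 and 1 held 4, and the median distance between neighbours was 3103 kb. Of neighbouring pairs, 9 lay within 50 kb. No expectation for 485 regions placed at random was computed, so these counts do not show whether the regions cluster or avoid each other. By chromosome, the number per 10 Mb ran between 0.886 on chromosome 9 (11 regions) and 2.56 on chromosome 3 (41 regions). Chromosome 8, where WT 1 had its excess of peaks, held 18, or 1.39 per 10 Mb.

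X held 24 silent regions, or 4.95% (3.20 to 7.27%), against 4.54% (4.09 to 5.03%) of shared stress regions with a WT peak and 2.06% of regions of all 3 lists. X makes up 6.47% of the span, and its 1.41 silent regions per 10 Mb lie within the range of the other chromosomes. The share of a library's own peaks on X differed, with 4.15% and 3.55% in APH 1 and APH 2, and 2.24% and 2.73% in CDC6 1 and CDC6 2, against 1.75% in WT 1 and 3.30% in WT 2. The median fold of X members was 2.89 against 2.88 on autosomes in APH 1 and 2.78 against 2.73 in APH 2, and it was 2.32 against 2.55 in CDC6 1 and 2.85 against 3.04 in CDC6 2. They also lay farther from WT peaks, by a median of 15.6 kb against 8.05 kb on autosomes. The part that the lower share of WT 1 peaks on X has in this distance was not tested. The single bin with 4 members was on X from 21 to 22 Mb, near Ssxa1, Agtr2 and Slc6a14.

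The distance to WT peaks shows how far the regions lie from the edge of the rule, not how weak the WT signal at them was. The median distance to the nearest WT peak was 8.35 kb (95% interval of the median 7.11 to 9.62 kb over regions), with 12.2 kb to WT 1 and 13.1 kb to WT 2. Shared stress regions with a WT peak had similar medians to the next peak that did not overlap them, 10.5 kb in WT 1 and 11.1 kb in WT 2. A WT peak lay within 10 kb of 272 silent regions, within 1 kb of 21 and within 50 kb of 466. The nearest cases just inside the rule were regions in Magi2, 8 bp from a WT 2 peak, near Triml1, 18 bp, and in Ampd3, 21 bp. Just outside it, a region near Kcna4 overlapped a WT 2 peak by 28 bp, one in Shoc1 a WT 1 peak by 34 bp and one near Zfp326 a WT 1 peak by 42 bp. Such short contacts were rare: only 22 of the 7733 regions with a WT peak overlapped it by under 100 bp, and 6281 lay wholly inside one. The farthest silent regions lay near Kirrel3, 87.8 kb from any WT peak, and near Dhx35, 80.5 kb. Relative to the WT origin list, the median distance was 61.0 kb, against 47.8 kb for shared stress regions with a WT peak.

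**Figure D5:**
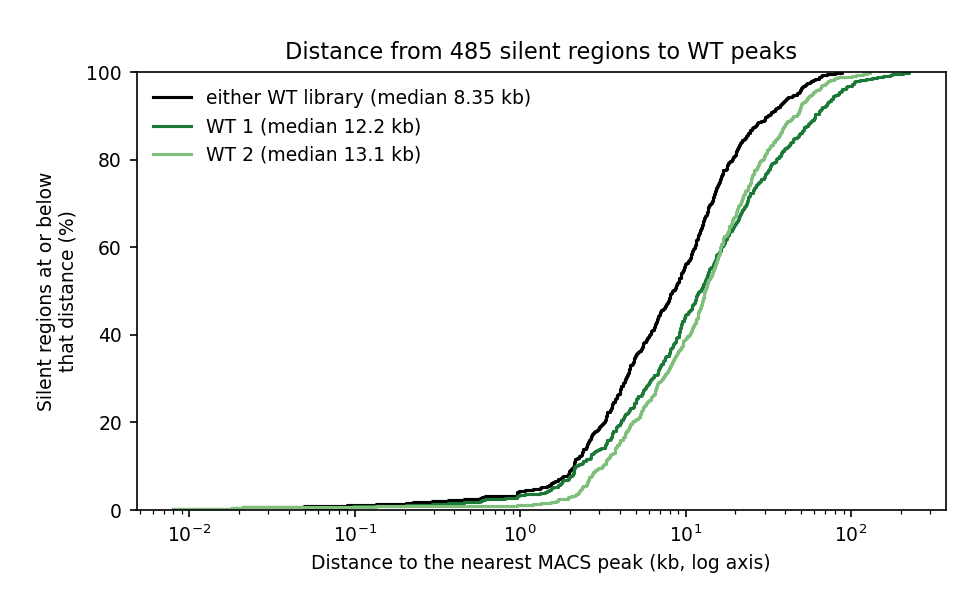
Cumulative share (%) of the 485 silent regions by distance (kb, log axis) to the nearest MACS peak of either WT library, of WT 1 and of WT 2. The medians are 8.35, 12.2 and 13.1 kb, and few regions lie within 1 kb.

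The surroundings of silent regions were compared to ask whether whole neighbourhoods gain peaks under stress. Peaks that met a member were left out. Of the remaining peaks, 3.22% and 3.15% in APH 1 and APH 2, and 2.99% and 3.20% in CDC6 1 and CDC6 2 lay within 100 kb of a silent region, against 3.05% in WT 1 and 3.31% in WT 2, and these flanks cover 3.60% of the span. The stressed libraries lay between the WT libraries except CDC6 1. The stressed minus WT difference was −0.0398 percentage points, with an exact two-sided permutation p of 0.8 over 15 splits (adjusted 0.8 over 2 tests), of which the smallest possible is 0.0667. It was 0.00997 without CDC6 1 and 0.0883 without WT 2, so it has no settled sign. With flanks of 10 kb it was −0.0457 points, with an exact permutation p of 0.0667, the smallest possible. In the stressed libraries the left-out peak of a member can take up part of that flank, and its part in the difference was not tested. With flanks of 500 kb the stressed minus WT difference was −0.192 points, with an exact permutation p of 0.733.

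Peak numbers in 1 Mb bins were also tested with limma, again without the peaks at members. In the APH minus WT comparison 0 of 2545 bins were called at an adjusted p of at most 0.05 (0% of all bins), and 0 of the 424 tested bins with a silent region. At an unadjusted p under 0.05, 8 of the 424 bins (1.89%) passed, against 2.08% of all bins. In CDC6 minus WT, 0 bins were called, and 6 bins with silent regions (1.42%) passed unadjusted, against 1.89% of all bins. In APH minus CDC6, 0 were called and 8 (1.89%) passed unadjusted, against 3.18%. The shares of bins with silent regions were thus at or below the background of all bins. Of the bins with silent regions that passed unadjusted, 7 of 8 were lower in APH than in WT. For CDC6 against WT, 6 of 6 were lower in CDC6. Members have no WT peak, so only the stressed libraries lost peaks when those at members were left out. The part of this in these directions was not tested. Median log2 differences were 0.06 in bins with silent regions against 0.04 in all bins for APH minus WT, −0.00 against −0.01 for CDC6 minus WT, and 0.09 against 0.05 for APH minus CDC6. The 4-member bin on X had 33.1 and 29.0 scaled peaks in APH, 17.6 and 21.3 in CDC6, and 8.34 and 20.5 in WT libraries 1 and 2. Its APH minus WT log2 difference was 1.17 ± 0.41 (SE, limma), with an adjusted p of 0.999.

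The absence of calls held only with both WT libraries in the fit. Without WT 1, bins with silent regions called were 5 of 424 for APH minus WT (1.18%, against 1.69% of all bins), 111 for CDC6 minus WT (26.2%, against 30.6%) and 34 for APH minus CDC6 (8.02%, against 10.2%). Without WT 2 they were 165 (38.9%, against 38% of all bins), 53 (12.5%, against 10.9%) and 40 (9.43%, against 12.2%). These shares lay near the background of all bins, so the calls are no result about the silent regions. In each such fit the lone WT library is assumed to vary like the other groups. Leaving out either APH or either CDC6 library gave 0 calls in each comparison.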

How the data were processed

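The members, gene lists and tests were chosen with earlier results of these data known. Per the submitters' processing notes, the tools include BWA 0.7.10 and MACS2 2.0.10, and GRCm38, mm10 and mm9 are all named as builds. The sources used here give neither their roles and settings nor a read depth. The deposited MACS lists give, per peak, the authors' fold ratio relative to a control, a score, and p-value and q-value as −log10. The condition lists and second lists hold 2 scores per region, and how the authors made them is not stated. The Input sample was not analysed here.

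Lists were merged at an overlap of at least 1 bp with Python 3.11.15 and pandas 2.3.3. Gene positions (21627 protein-coding genes) and promoter windows are RefSeq's, GRCm38.p6; promoters on chromosome 18 were not analysed here. Shares have 95% Clopper-Pearson intervals. Peak midpoints in bins with a mean of at least 5, scaled to the mean total, were tested as log2(number + 1) by limma 3.58.1 in R 4.3.3 (lmFit, eBayes with trend, Benjamini-Hochberg), checked on simulated data. Library numbers do not pair the samples: same-numbered libraries correlated at −0.297 (APH and CDC6), −0.518 (APH and WT) and 0.284 (CDC6 and WT). The GC content, CpG islands and G-quadruplex patterns planned for all regions were not analysed here. Named members were the first 10 at gene ends, 8 in bodies and 8 outside by mean percentile rank, up to 4 per gene list, and the 3 nearest to and farthest from WT peaks. A few members that these rules name are not reported here.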

Additional observations from a re-analysis of the deposited data

Results flagged for a closer look

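The second deposited lists, whose labels go against the MACS lists, held rows at silent regions. The list labelled WT 1 had a row at 143 of the 485 (29.5%, against 36.9% of shared stress regions with a WT peak), and the list labelled WT 2 had a row at 485 of 485, as it had at every shared stress region with a WT peak. The lists labelled APH 2, CDC6 1 and CDC6 2 likewise each had a row at 485 of 485 silent regions and at 7733 of 7733 regions with a WT peak. The list labelled APH 1, which holds each row of the WT origin list, had a row at 76 (15.7%, against 72.4%). Rows of either the list labelled WT 1 or that labelled APH 1 were found at 188 silent regions, rows of both at 31 and of neither at 297. The 188 regions lay a median of 9.79 kb from a WT peak and the 297 a median of 7.74 kb, with median mean ranks of 58.3 and 59.5. Of the 24 silent regions on X, 17 were among the 188. Which cells these lists came from is not settled by the labels, so a row in the list labelled WT 2 does not show signal in untreated cells. Since the list labelled APH 1 holds each WT origin row, the 76 regions with a row there may have signal in untreated cells. This was not tested.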

How the results depend on the processing

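Of 83 alternatives, 63 were labelled the same, 18 moved and 2 reversed. The same meant that direction and side of the threshold were kept, that a value moved by less than the error, or that a count stayed within a set factor. Some could not change: all 485 regions had a MACS peak in each of the 4 stressed libraries, so asking for these left each result as it was. The number of silent regions was 954 with WT peaks of a q-value of at most 0.01 only, 0 when the second lists labelled WT had to be empty too, and 297 when those labelled WT 1 and APH 1 had to be (an alternative chosen after seeing the data), of which 2.36% lay on X. Leaving out a WT library gave 1150 to 3373 regions, with 1.99% to 12.1% at gene ends and 32.5% to 47.7% in bodies. For the original 485 regions, the median distance to the nearest peak of the remaining WT library was 12.2 to 13.1 kb. With the stricter q-value the median distance to the nearest WT peak was 11.8 kb. A 5 kb window put 10.3% at gene ends. The rank difference stayed between −17.7 and −13.3 points with any 1 stressed library left out. The flank difference ran between −0.168 and 0.0883 points with 1 library left out and was 0.00997 without CDC6 1 and 0.0883 without WT 2. Bins with silent regions called by limma numbered 0 to 165 (APH minus WT), 0 to 111 (CDC6 minus WT) and 0 to 40 (APH minus CDC6) with 1 library left out; the values above 0 are 5, 111 and 34 of 424 without WT 1, where 1.69%, 30.6% and 10.2% of all bins were called, and 165, 53 and 40 without WT 2, where 38%, 10.9% and 12.2% were. The causes were not tested. The replicate block, in which numbers do not pair the samples, gave 0 calls in each comparison. Read depth is unknown, so weak WT signal below the peak threshold cannot be seen.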
